A study of Homo sapiens with 14 samples.

Results

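The human major histocompatibility complex (MHC) locus was taken as every region of an ATAC-seq count table that starts between positions 28500000 and 33500000 of chromosome 6 (hg38). This gave 244 of 65774 regions. Of these, 35 lay in the extended class I part, 118 in class I, 52 in class III, 17 in class II and 22 in the extended class II part. ATAC-seq measures open chromatin: a transposase inserts sequencing adapters where DNA is accessible, and the reads that fall in each region are counted. The cells were SUM149PT, an established inflammatory breast cancer line labelled ER-/PR-, so without oestrogen and progesterone receptors. The 14 libraries form 7 groups of 2: the parental line (Parental) and 6 clones of it, called E, the 3 EM clones EM1 to EM3, and the M clones M1 and M2. All groups derive from the one line and received no treatment. What the clone letters stand for is not spelled out. By its title the study concerns intermediate states of the epithelial-mesenchymal transition (EMT), a process in which epithelial cells loosen their junctions and take on mesenchymal features. Each clone group is 1 clone, so a difference from Parental belongs to that clone and not to a class of clones. Nothing says that the libraries of a group came from separate cultures, and p-values then measure only the spread between these libraries, which may be technical. In bulk samples, fewer cells with an open region and less opening in each cell cannot be told apart.

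The MHC is the gene-dense stretch that holds the classical antigen presentation genes. Classical class I molecules, such as HLA-B and HLA-C, show peptides from inside the cell to cytotoxic T cells, and HLA-E and HLA-F are less variable relatives read by natural killer cells. Class II molecules (HLA-DR, HLA-DQ, HLA-DP) show peptides taken up from outside and are made mainly by B cells, macrophages and dendritic cells, although epithelial cells can be induced to make them. The class II part also holds genes that serve class I, namely the immunoproteasome subunits PSMB8 and PSMB9 and the peptide transporter TAP1 and TAP2. Class III, between them, holds complement, heat shock, tumour necrosis factor and many housekeeping genes. Promoters of presentation genes are known to carry a Y box bound by NF-Y, and interferon-inducible ones an interferon-stimulated response element (ISRE) and NF-kB sites.

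The promoters below belong to the gene starts on which the results turn: HLA-B, TAP1 and PSMB9 from the class I pathway, HLA-DMA and HLA-DOB from the class II pathway, and RNF39 and ZNF311 for a large fall and a large rise. Each is the 250 bases before a RefSeq gene start (GRCh38.p14), read 5′ to 3′ on the strand of the gene. Capitals mark matches on either strand to the Y box (ATTGG), the ISRE (GAAA, any 2 bases, GAAA), 2 forms of the NF-kB site (GGGGA followed directly by TTCCC, and GGG, any 2 bases, TTTCC), AP-1 (TGANTCA), the CRE core (TGACG) and the GC box (GGGCGG).
HLA-B: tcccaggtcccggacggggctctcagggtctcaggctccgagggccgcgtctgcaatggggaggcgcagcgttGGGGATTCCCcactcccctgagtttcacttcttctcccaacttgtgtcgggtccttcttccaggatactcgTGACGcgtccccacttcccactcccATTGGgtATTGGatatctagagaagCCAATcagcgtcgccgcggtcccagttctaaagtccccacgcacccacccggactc
TAP1: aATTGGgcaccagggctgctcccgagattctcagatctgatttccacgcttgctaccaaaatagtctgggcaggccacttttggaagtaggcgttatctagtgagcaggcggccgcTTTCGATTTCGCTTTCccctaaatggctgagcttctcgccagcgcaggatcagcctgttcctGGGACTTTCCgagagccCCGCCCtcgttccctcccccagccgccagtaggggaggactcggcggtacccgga
PSMB9: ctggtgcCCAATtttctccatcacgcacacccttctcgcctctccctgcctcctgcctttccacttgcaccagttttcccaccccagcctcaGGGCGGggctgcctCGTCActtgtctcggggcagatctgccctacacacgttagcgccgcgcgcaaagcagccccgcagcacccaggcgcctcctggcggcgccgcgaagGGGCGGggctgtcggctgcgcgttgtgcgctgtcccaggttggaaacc
HLA-DMA: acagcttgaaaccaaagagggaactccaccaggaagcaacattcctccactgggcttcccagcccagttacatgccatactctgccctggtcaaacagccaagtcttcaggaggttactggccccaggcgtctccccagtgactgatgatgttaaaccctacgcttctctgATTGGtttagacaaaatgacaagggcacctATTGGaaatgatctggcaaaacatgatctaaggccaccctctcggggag
HLA-DOB: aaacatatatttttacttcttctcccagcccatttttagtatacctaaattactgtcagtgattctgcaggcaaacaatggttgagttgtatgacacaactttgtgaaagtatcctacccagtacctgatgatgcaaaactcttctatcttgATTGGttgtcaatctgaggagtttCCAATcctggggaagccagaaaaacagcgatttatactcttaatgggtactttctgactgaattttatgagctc
RNF39: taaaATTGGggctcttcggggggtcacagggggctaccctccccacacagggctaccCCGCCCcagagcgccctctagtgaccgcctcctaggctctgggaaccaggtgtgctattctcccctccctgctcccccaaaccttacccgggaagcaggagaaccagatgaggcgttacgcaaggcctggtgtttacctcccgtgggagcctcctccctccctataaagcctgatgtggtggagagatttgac
ZNF311: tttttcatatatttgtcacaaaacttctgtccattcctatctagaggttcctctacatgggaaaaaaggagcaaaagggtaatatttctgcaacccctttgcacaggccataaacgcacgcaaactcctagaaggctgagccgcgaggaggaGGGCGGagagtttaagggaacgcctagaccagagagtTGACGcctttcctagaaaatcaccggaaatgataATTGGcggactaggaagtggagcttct

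The HLA-B window (chr6:31357180-31357429, minus strand) held 3 Y boxes, 1 NF-kB match of the first form and 1 CRE core. The TAP1 window (chr6:32853705-32853954, minus strand) held 2 ISRE matches that overlap each other, 1 NF-kB match of the second form, 1 Y box and 1 GC box. The PSMB9 window (chr6:32853942-32854191, plus strand) reads in the other direction from the same spot: the windows share 13 bases, which hold 1 and the same Y box. The windows of HLA-DMA (chr6:32953098-32953347) and HLA-DOB (chr6:32817003-32817252), both on the minus strand, held 2 Y boxes each. RNF39 (chr6:30075770-30076019, minus strand) and ZNF311 (chr6:29005613-29005862, minus strand) are a ubiquitin ligase family gene and a zinc finger gene. HLA-E and HLA-DRA had no entry in the promoter table used here.

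Over 213 gene start windows of the locus, 300 bases each (250 before to 50 after the start), the ISRE was held by 7.98%, against 3.16% of all 22078 windows. The first NF-kB form was in 0.939% of locus windows and 0.0906% of all windows, and the second in 4.70% and 1.94%. The Y box was in 39.0% and 34.7%, AP-1 in 7.04% and 6.16%, the CRE core in 25.4% and 27.9%, and the GC box in 49.8% and 56.3%. These letters describe the windows and do not show binding.

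Regions were spread unevenly along the locus. Class III held 72.9 regions per Mb, extended class II 65.2, class I 64.2, extended class I 29.9 and class II 18.1. The longest stretch without a region, chr6:29017394-29502291 (484.9 kb), holds 13 protein-coding genes, all but MAS1L olfactory receptor genes. The next, chr6:32255681-32609772 (354.1 kb), holds HLA-DRA, HLA-DRB1, HLA-DRB5, BTNL2 and TSBP1. A stretch of 175.6 kb (chr6:32610326-32785942) holds HLA-DQA1, HLA-DQA2, HLA-DQB1 and HLA-DQB2, and one of 175.7 kb (chr6:32985087-33160821) holds HLA-DOA, HLA-DPA1 and HLA-DPB1. Thus the classical class II chains lay in stretches that the count table does not cover, and nothing can be said of their accessibility from this table. HLA-DRA, which encodes the alpha chain of HLA-DR, had no region within 10 kb.

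Of the 244 regions, 93 (38.1%) lay within 1 kb of the start of a gene, against 19.5% of all regions and 25.3% of the 708 regions in the 10 Mb on either side of the locus. The share was 59.6% in class III and 72.7% in extended class II. A further 44 lay inside a gene, 38 within 10 kb of one and 69 farther away. Their median width was 411.5 bp, against 407 bp for all regions. Gene start regions were present for 8 of 8 class I heavy chain genes, 3 of 13 class II chain genes (HLA-DMA, HLA-DMB and HLA-DOB), 5 of 5 peptide processing and loading genes (TAP1, TAP2, PSMB8, PSMB9 and TAPBP), 2 of 7 genes of the TNF cluster, 1 of 4 complement genes and 3 of 3 HSPA1 genes. Of the marker genes of the locus, HLA-B, HLA-E, TAP1 and PSMB9 had a gene start region and HLA-DRA did not.

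Library totals ran from 8138944 to 16786823 counts, and the locus took between 0.451% and 0.504% of them. Levels are given as CPM, counts scaled to the library size with the TMM factor, either for each library or as mean ± SD (n = 2), and log2 differences carry their standard error (SE). Calls were made at 0.05 on the p from edgeR's quasi-likelihood test with Benjamini-Hochberg adjustment over all 65771 regions tested, and every p below is such an adjusted p. One library stood apart from its partner: in 12 regions of the genome, none in the locus, that had no count in Parental, EM1, EM2, EM3 or M1, E replicate 1 held 21.1% of the mean level of M2 (95% interval 19.4 to 23.0, counting error only) and E replicate 2 held 1.77% (1.31 to 2.35). The E calls named below are therefore given with and without its replicate 1. SUM149PT is an epithelial tumour line, and of 10 blood cell markers, 6 had no gene start region, among them PTPRC, CD79A, MS4A1, ITGAX and LYZ. The summed level of the other 4 (CD3E, CD14, SPI1 and CSF1R) was 135 to 144 CPM in Parental, 111 to 113 in E, 119 to 149 in EM1, 135 to 158 in EM2, 121 to 142 in EM3, 123 to 131 in M1 and 60.1 to 75.7 in M2.

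Across the 7 groups, 129 of the 244 locus regions were called (52.9%), beside 78.6% of all regions tested and 65.8% of those in the flanks. The count was 81 of 153 in class I with its extended part, 25 of 52 in class III and 23 of 39 in class II with its extended part, where 14 of the 17 core class II regions were called. At gene starts 40 of 93 locus regions were called, beside 72.4% of all gene start regions, and elsewhere 89 of 151, beside 80.1%. The highest group mean exceeded the lowest by a median of 1.87-fold in the locus and 3.46-fold over all regions. At gene starts these medians were 1.54 and 1.97, and elsewhere 2.41 and 4.54. The ratio was under 1.5 in 73 locus regions and over 4 in 55. Among the called regions, M2 was the highest group in 63 and the lowest in 40. No other group was highest in more than 18 or lowest in more than 24. These ranks were not counted over all regions, so they do not show a trait of the locus.

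Clone by clone, M2 differed most from Parental and EM1 least. In M2, 88 locus regions were higher (36.1%, beside 32.2% of all regions) and 49 lower (20.1%, beside 34.9%). In M1, 37 were higher and 35 lower, beside 19.0% and 23.4% of all regions, which makes 15.2% and 14.3% of the locus. In E, 8 were higher and 4 lower, beside 5.26% and 6.31%. In EM2, 1 was higher and 5 lower, beside 3.02% and 6.17%. In EM3, 2 were higher and 1 lower, beside 1.85% and 1.26%. In EM1 none was called by edgeR, beside 0.341% higher and 0.287% lower; 8 had an unadjusted p under 0.05 (3.28%, beside 10.3% of all regions), the smallest adjusted p was 0.102, and DESeq2 called 1. The 6 comparisons share the Parental libraries. In these 6 comparisons no called locus region had library values that overlap between the groups. The same was not counted over all called regions, so this adds no support to the calls. The small counts rest on single libraries. In E the 12 calls became 3 without either Parental library, 5 without E replicate 1 and 7 without EM3 replicate 1. In EM2 the 6 calls became 1 without Parental replicate 1 or EM2 replicate 1, and 12 without either E library. In EM3 the 3 calls became 0 without either Parental or either EM3 library, and 1 without any one of the EM1 or EM2 libraries. In M1 the 72 calls became 46 without Parental replicate 1.

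**Figure D1:**
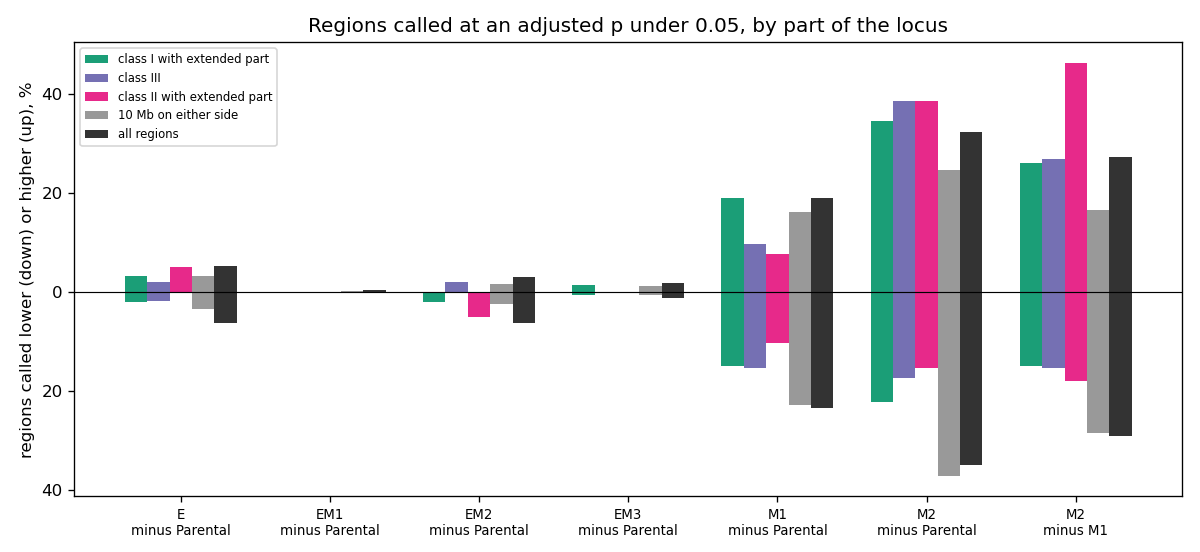
Share of regions called higher (upward bars) or lower (downward bars) at an adjusted p under 0.05, in percent, for each comparison and for 3 parts of the locus, the 10 Mb on either side and all regions; bars are shares of regions and carry no error. In M2 against Parental, 38.5% of class III regions were higher and 17.3% lower, while in the flanks 24.6% were higher and 37.1% lower.

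In M2, calls higher than Parental outnumbered calls lower in each part of the locus: 53 against 34 in class I with its extended part, 20 against 9 in class III and 15 against 6 in class II with its extended part. Over the locus this balance depended on the settings: 88 against 49 became 73 against 55 with library totals, and among calls past a log2 limit of 1 it turned to 36 higher and 41 lower. The median log2 difference of M2 from Parental was 0.30 over the locus, -0.01 over all regions and -0.11 in the flanks. At gene starts, 35 locus regions were higher (37.6%, beside 43.2% of all gene start regions) and 14 lower (15.1%, beside 19.2%), so 52.7% were called, beside 62.4%. The median difference at gene starts was 0.30 in the locus and 0.36 over all regions. Away from gene starts 53 were higher and 35 lower (58.3%, beside 68.2%), with medians of 0.29 in the locus and -0.18 over all such regions. No test compared the locus with other regions. For M1, 16 of 93 gene start regions (17.2%, beside 23.0%), 6 higher and 10 lower (beside 9.36% and 13.7% of all gene start regions), and 56 of 151 others (37.1%, beside 47.1%) were called. Scaling by library totals moved the median of all regions by -0.11 for M2 against Parental and by -0.15 for M2 against M1, and loess offsets moved it by 0.15 and 0.11.

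The direct comparison of M2 with M1 leaves Parental out of the log2 difference, but its p-values come from the fit of all 14 libraries. It called 72 locus regions higher in M2 and 38 lower, beside 27.2% and 29.1% of all regions. With library totals this split was 40 higher and 48 lower, so the direction of the balance turned with the scaling. With only the M1 and M2 libraries in the fit, the count fell to 86. It also fell from 110 calls to 62 without M1 replicate 1, to 72 without M1 replicate 2 and to 63 without M2 replicate 2. Set against Parental, 23 locus regions were higher in both clones and 29 lower in both. M1 was higher and M2 lower in 4, and the reverse held in 1. M2 alone was called higher in 64 and lower in 16, and M1 alone higher in 10 and lower in 5. These comparisons share the Parental libraries. The same cross-count was not made over all regions, of which 42.4% were called in M1 and 67.0% in M2.

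**Figure D2:**
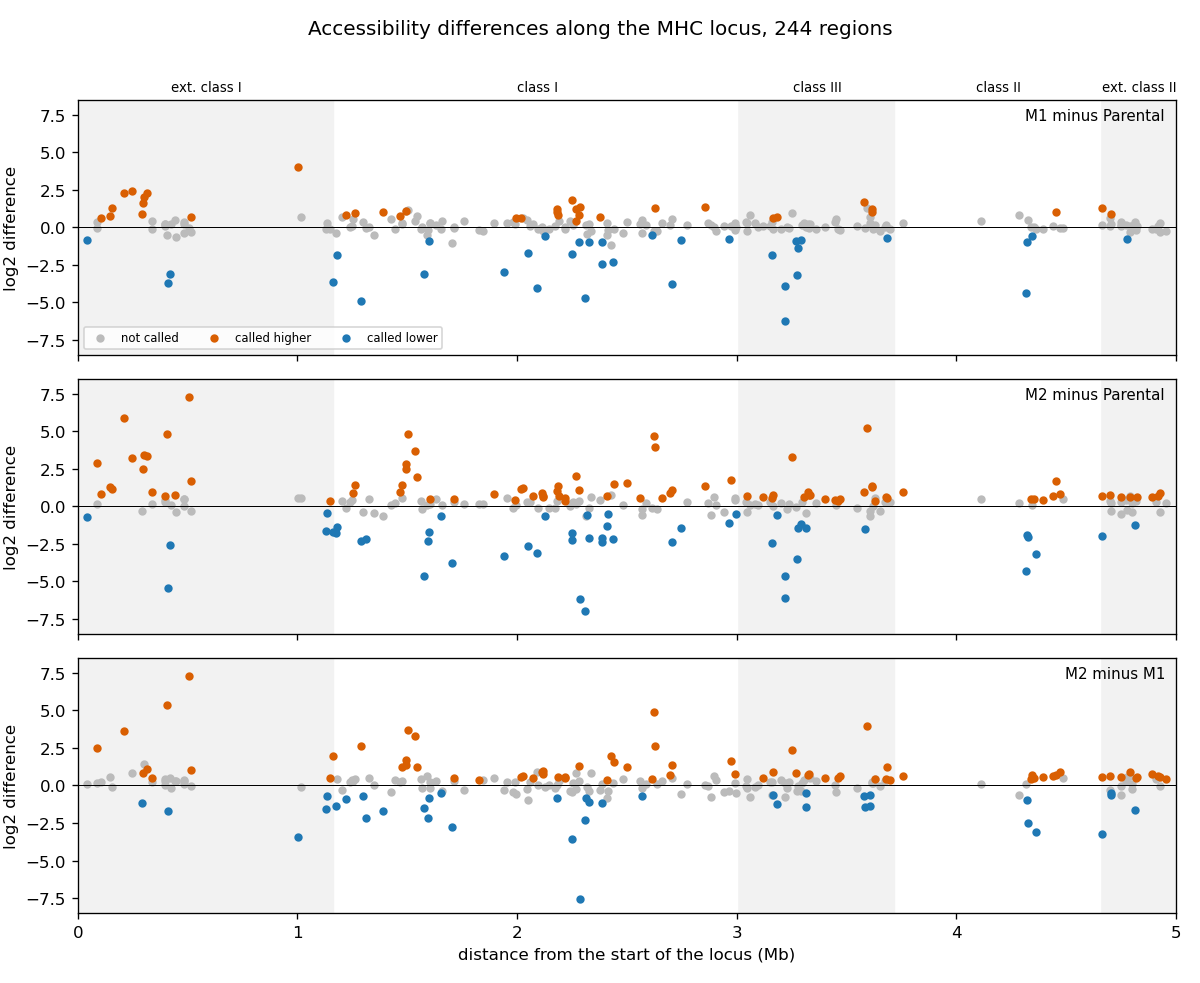
Log2 difference in accessibility (vertical axis) of each of the 244 locus regions against its distance from the start of the locus in Mb, for M1 and M2 against Parental and for M2 against M1; grey points were not called, and shading marks alternate parts of the locus. The empty stretches are those without regions. On the log2 scale, differences of M2 from Parental reach -6.98 and 7.26, and those of M2 from M1 reach -7.56 and 7.32.

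Summed over the locus, the 244 regions held 4555 ± 9.55 CPM in Parental and 5413 ± 250 in M2. The M2 libraries, at 5236 and 5589, were above all 12 others, which lay between 4499 and 4973. Without the TMM factors this order was lost: the locus took 0.492% and 0.504% of the counts in M2, 0.504% in E replicate 1 and 0.502% in EM3 replicate 2. The class I sum with its extended part was 2340 ± 21.8 in Parental and 2737 ± 103 in M2, that of class III 1241 ± 0.212 and 1463 ± 66.0, and that of class II with its extended part 974 ± 12.5 and 1213 ± 80.8. In M1 the locus sum was 4582 ± 118, which overlapped Parental. No test was made on these sums.

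Among the class I heavy chains, the start of HLA-B showed the largest rise. Its region (chr6:31357103-31357591, the HLA-B promoter shown above) held 5.26 and 7.55 CPM in Parental, 10.9 and 7.03 in E, 6.41 and 5.23 in EM1, 6.78 and 7.79 in EM2, 6.43 and 8.16 in EM3, 15.4 and 17.1 in M1 and 14.7 and 18.5 in M2. All 4 libraries of M1 and M2 were above every other library. EM1 lay below E, EM2 and EM3 and overlapped only Parental, while Parental, E, EM2 and EM3 overlapped one another. The log2 difference from Parental was 1.34 ± 0.28 in M1 (adjusted p = 0.00178) and 1.37 ± 0.28 in M2 (adjusted p = 0.000837), and M2 did not differ detectably from M1 (0.03 ± 0.27, adjusted p = 0.935). A second region 9704 bp from HLA-B, at chr6:31366883-31367385, was not called in either clone (0.29 ± 0.18, adjusted p = 0.203 in M1 and 0.24 ± 0.18, adjusted p = 0.243 in M2).

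HLA-F was called higher in M1. Its start held 18.0 and 16.4 CPM in Parental, 17.1 and 19.3 in E, 22.0 and 21.5 in EM1, 21.5 and 19.6 in EM2, 25.4 and 22.6 in EM3, 32.2 and 28.5 in M1 and 16.0 and 16.0 in M2. The M1 libraries were the highest and the M2 libraries the lowest of all. The difference from Parental was 0.82 ± 0.17 in M1 (adjusted p = 0.00131) and -0.10 ± 0.17 in M2 (adjusted p = 0.628), and M2 against M1 gave -0.92 ± 0.17 (adjusted p = 0.000477).

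At the start of HLA-E (chr6:30489212-30489634) the levels were 22.3 and 21.2 CPM in Parental, 23.3 and 26.0 in E, 20.0 and 21.8 in EM1, 20.3 and 24.2 in EM2, 20.1 and 22.5 in EM3, 24.0 and 25.8 in M1 and 25.3 and 34.0 in M2. M2 rose by 0.45 ± 0.18 (adjusted p = 0.0419), with 1 of its libraries within the range of E and M1. This call was lost with library totals and with 10 other settings, among them the omission of either Parental library. A region 2233 bp past HLA-E (chr6:30496427-30497006) fell in E (-0.87 ± 0.26, adjusted p = 0.0448, and -0.85, adjusted p = 0.160 without E replicate 1) and rose in M1 (0.64 ± 0.24, adjusted p = 0.0467); each call was lost in more than 10 other settings. The region 7003 bp before HLA-E was called in neither M1 nor M2.

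The start of HLA-C was not called in any comparison, at 20.0 ± 0.548 CPM in Parental and 24.7 ± 1.67 in M2 (log2 difference 0.31 ± 0.17, adjusted p = 0.120). HLA-G, the class I gene of the placenta, had a weak start region with 0.329 to 3.56 CPM over all libraries, called among the 7 groups (adjusted p = 0.0237) but in none of the 7 pairwise comparisons (M2 against Parental 0.50, adjusted p = 0.450). With loess offsets it was called lower in M2 (-1.50 against Parental, adjusted p = 0.0130) and in E, so no direction is given for it. MICA and MICB encode stress ligands of the NKG2D receptor. The start of MICA did not differ detectably, and that of MICB fell in M2 from 20.4 and 20.4 CPM to 12.8 and 15.3 (-0.53 ± 0.22, adjusted p = 0.0449), a call lost in 11 other settings, the DESeq2 test among them. In all, 2 of the 8 heavy chain starts rose and 1 fell in M2, beside 43.2% and 19.2% of all gene start regions, with a median difference of 0.28, beside 0.36. In M1 2 of the 8 rose and none fell, beside 9.36% and 13.7%, with medians of 0.10 and 0.02. Class I heavy chain genes are close copies of one another and vary between alleles. How the authors placed reads that match several copies is not stated, so the values of single HLA genes are uncertain, and the part of this in the results was not tested.

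The genes that cut, transport and load peptides for class I differed in direction. TAP1 and PSMB9 start back to back and share 1 region (chr6:32853460-32854389, which covers both promoters shown above). It held 54.2 and 44.9 CPM in Parental, 62.5 and 56.2 in E, 39.6 and 45.9 in EM1, 42.5 and 49.6 in EM2, 45.3 and 47.6 in EM3, 48.3 and 52.2 in M1 and 64.8 and 75.1 in M2. The M2 libraries were the highest, just above E. The rise in M2 was 0.50 ± 0.15 (adjusted p = 0.00914) and was lost without Parental replicate 2 or without M2 replicate 2; M1 was at 0.02 ± 0.15 (adjusted p = 0.929). TAP2, which pairs with TAP1 in the transporter, went from 50.3 and 44.7 CPM to 62.4 and 69.2 in M2 (0.47 ± 0.12, adjusted p = 0.00417; lost without Parental replicate 2), above all other libraries, and stayed at 47.3 and 49.6 in M1 (0.03 ± 0.12, adjusted p = 0.877).

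PSMB8, which encodes another immunoproteasome subunit, fell in M1 instead. Its start held 46.4 and 47.1 CPM in Parental, 30.1 and 31.4 in M1, 51.5 and 46.5 in M2 and 38.0 to 56.9 in the other libraries, so the M1 libraries were the lowest of all. The difference in M1 was -0.60 ± 0.16 (adjusted p = 0.00673; lost without M1 replicate 1), that in M2 0.07 ± 0.15 (adjusted p = 0.720), and M2 against M1 gave 0.67 ± 0.16 (adjusted p = 0.00267).

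TAPBP encodes tapasin, which bridges class I chains to the transporter. Its start (chr6:33314481-33314792) held 11.5 and 11.5 CPM in Parental, 15.4 and 14.6 in M1, 5.38 and 4.43 in M2 and 12.2 to 15.6 in the other libraries. Both M2 libraries lay below all others. M2 fell by 1.23 ± 0.22 on the log2 scale (adjusted p = 0.000302) and its difference from M1 was -1.62 ± 0.22 (adjusted p = 5.69e-05). A region 1335 bp past the end of PSMB9 (chr6:32861186-32861571) also fell in M2, from 14.2 and 16.0 CPM to 1.37 and 1.91 (-3.17 ± 0.42, adjusted p = 2.18e-05), with 7.01 to 21.3 CPM in the other libraries. Of the 4 start regions of these 5 genes, 2 were thus higher and 1 lower in M2, beside 43.2% and 19.2% of all gene start regions, with a median of 0.27, beside 0.36, and 1 was lower in M1. This balance turned when the 7 regions within 10 kb of these genes were counted: 2 were higher and 4 lower in M2, with a median of -1.23.

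**Figure D3:**
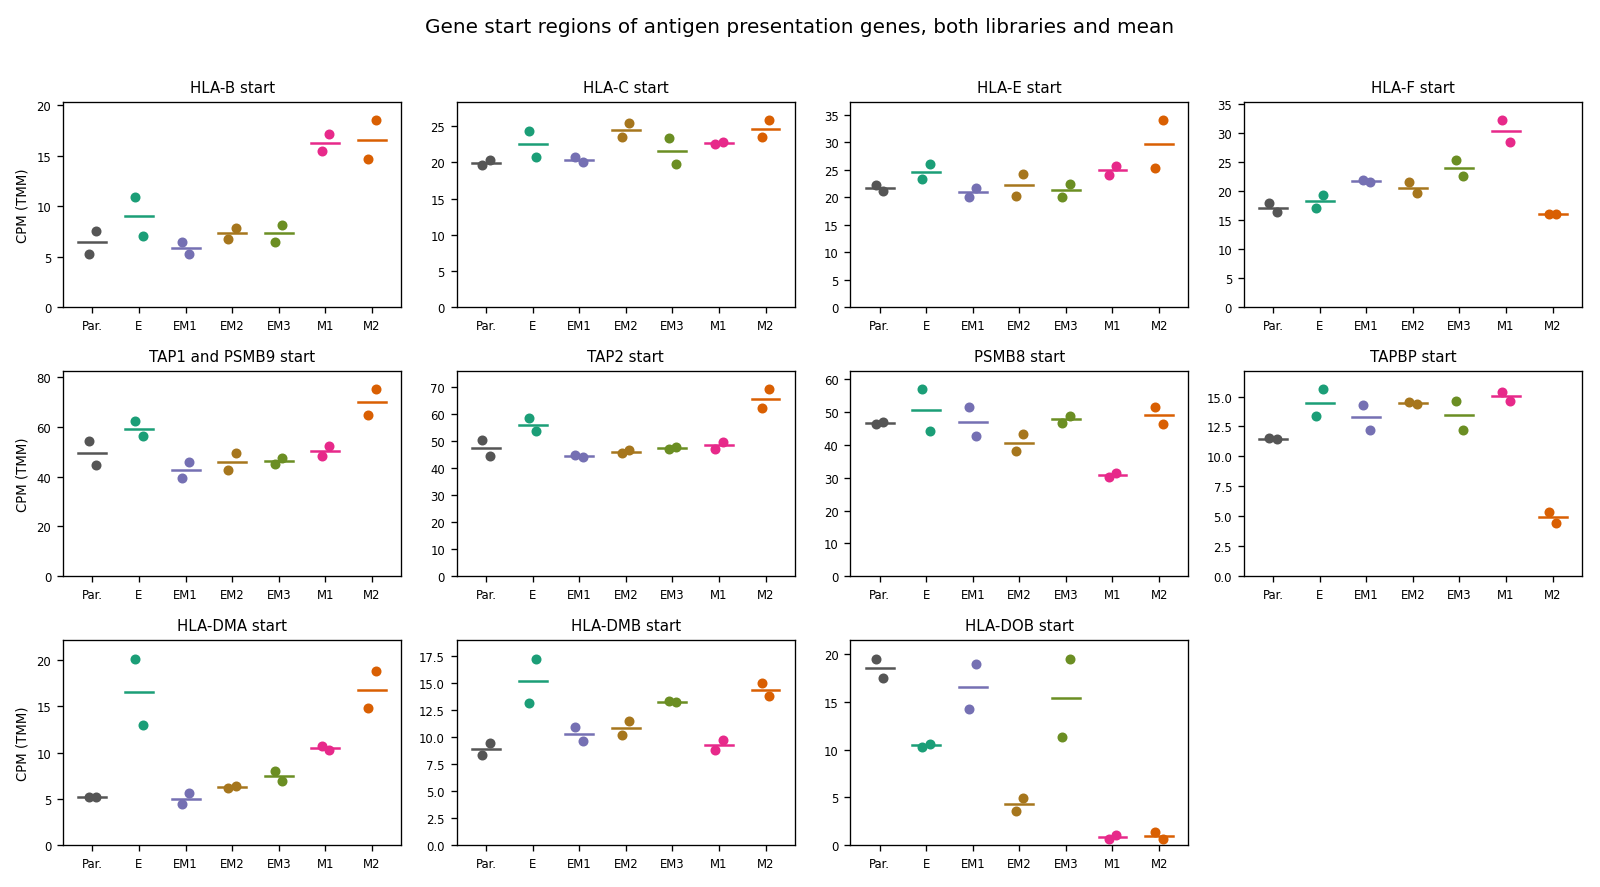
Accessibility (CPM with TMM scaling, linear axes from 0) at the gene start regions of 12 antigen presentation genes in each group; points are the 2 libraries and lines their mean. HLA-B is highest in M1 and M2, HLA-F in M1, TAPBP is lowest in M2, and HLA-DOB is near 1 CPM in M1 and M2.

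The 3 class II genes with a start region all changed in M2, in opposite directions. HLA-DMA and HLA-DMB form HLA-DM, which loads peptides onto class II. The HLA-DMA start (chr6:32953023-32953469) held 5.26 and 5.18 CPM in Parental, 20.1 and 13.0 in E, 4.45 and 5.65 in EM1, 6.17 and 6.39 in EM2, 7.99 and 6.95 in EM3, 10.7 and 10.2 in M1 and 14.8 and 18.8 in M2. E, M1 and M2 were above every library of the other 4 groups, and E overlapped M2. The rises were 1.66 ± 0.27 in E (adjusted p = 0.00302), 1.00 ± 0.27 in M1 (adjusted p = 0.00813; lost without Parental replicate 2) and 1.69 ± 0.27 in M2 (adjusted p = 0.000100). Without E replicate 1 the rise in E was 1.31 (adjusted p = 0.0221).

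HLA-DMB followed in E and M2. Its start (chr6:32940774-32941195) held 8.34 and 9.42 CPM in Parental, 13.1 and 17.2 in E, 10.9 and 9.62 in EM1, 10.2 and 11.5 in EM2, 13.3 and 13.2 in EM3, 8.82 and 9.71 in M1 and 15.0 and 13.8 in M2. E, EM3 and M2 were above the rest. The difference was 0.77 ± 0.22 in E (adjusted p = 0.0391; 0.96 without E replicate 1, adjusted p = 0.0456), 0.69 ± 0.22 in M2 (adjusted p = 0.0130) and 0.06 ± 0.22 in M1 (adjusted p = 0.848). The call in E was lost in 6 settings, among them the omission of either Parental library or of E replicate 2, and that in M2 without Parental replicate 1 or M2 replicate 1.

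HLA-DOB encodes a chain of HLA-DO, which holds HLA-DM in check. Its start (chr6:32816642-32817192) held 19.5 and 17.5 CPM in Parental, 10.3 and 10.5 in E, 14.2 and 18.9 in EM1, 3.62 and 4.91 in EM2, 11.3 and 19.4 in EM3, 0.638 and 1.06 in M1 and 1.37 and 0.611 in M2. M1 and M2 were lowest and EM2 lay between them and the rest. The log2 differences were -4.38 ± 0.41 in M1 (adjusted p = 3.12e-06), -4.28 ± 0.41 in M2 (adjusted p = 1.62e-06) and -2.11 ± 0.34 in EM2 (adjusted p = 0.00211), while E was at -0.83 and not called. These HLA-DOB calls held in all settings tried. M2 and M1 did not differ detectably (0.10 ± 0.52, adjusted p = 0.885).

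Further along the class II part, the start of BRD2, a reader of acetylated histones, rose in M2 from 48.5 and 48.3 CPM to 83.5 and 89.6 (0.84 ± 0.17, adjusted p = 0.000862), while M1 held 41.0 and 50.7. Next to COL11A2, a region at chr6:33160822-33161354 moved in opposite directions: it held 7.98 and 6.19 CPM in Parental, 18.0 and 16.6 in M1 and 1.60 and 1.99 in M2. The difference was 1.29 ± 0.25 in M1 (adjusted p = 0.00109), -1.96 ± 0.29 in M2 (adjusted p = 6.30e-05) and -1.12 ± 0.27 in EM2 (adjusted p = 0.0208). Its neighbour 742 bp from COL11A2 rose in M2 instead (8.52 and 8.31 CPM to 14.3 and 13.5, 0.72 ± 0.22, adjusted p = 0.00948). In extended class II, 17 of 19 listed genes had a start region, in 13 distinct regions; 6 were higher in M2 and none lower (beside 43.2% and 19.2% of all gene start regions; median 0.45, beside 0.36), and 1 was lower in M1. Those that rose include KIFC1, a mitotic kinesin (62.0 and 61.3 CPM to 99.6 and 93.2, 0.65 ± 0.13, adjusted p = 0.000617), and DAXX, a histone chaperone (43.5 and 42.5 to 59.1 and 75.5, 0.65 ± 0.18, adjusted p = 0.00642; lost without M2 replicate 2).

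In class III, starts of neighbouring heat shock genes moved in opposite directions in M2. HSPA1A, HSPA1B and HSPA1L encode HSP70 chaperones. The stronger of 2 regions at the starts of HSPA1A and HSPA1L (chr6:31815053-31815660) held 23.8 and 28.3 CPM in Parental, 17.2 to 33.0 in E, EM1, EM2, EM3 and M1, and 10.8 and 8.79 in M2. The HSPA1B start (chr6:31827211-31827971) held 75.7 and 70.7 CPM in Parental, 64.5 to 87.5 in those 5 clones and 121 and 131 in M2. M2 was thus below all other libraries at the first and above all at the second. The differences were -1.42 ± 0.21 (adjusted p = 6.58e-05) and 0.78 ± 0.13 (adjusted p = 0.000125), with M1 at 0.00 ± 0.20 and -0.01 ± 0.13. The other HSPA1A and HSPA1L region (chr6:31814555-31814976) held 13.3 and 15.9 CPM in Parental and 10.1 and 11.2 in M2 and was not called (-0.46 ± 0.20, adjusted p = 0.0533). HSPA1A and HSPA1B are near-identical copies, so reads could be split between them in ways the sources used here do not describe.

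The lists below take 1 start region a gene, the one with the highest mean level. Of 26 further class III genes of mixed function, from RNA and chromatin factors to receptors, 20 had a start region, in 17 distinct regions, of which 7 were higher and 1 lower in M2 (beside 43.2% and 19.2% of all gene start regions; median 0.30, beside 0.36), and 1 was lower in M1. The rise at the shared start of CSNK2B, a casein kinase subunit, and GPANK1 was 0.73 ± 0.22 (adjusted p = 0.00982), from 26.6 and 30.0 CPM to 40.0 and 53.9, and was lost without Parental replicate 1 or M2 replicate 2. The region that fell lies inside VWA7, at its start (chr6:31776772-31777448). It was also tied to VARS1, the valyl-tRNA synthetase gene, by the rule of either gene end. VARS1 has another region at its other end (chr6:31795330-31796238), which is not reported here, so the fall is not given for the VARS1 start. The VWA7 region held 66.0 and 55.5 CPM in Parental, 40.4 and 45.1 in E, 48.7 to 61.9 in the EM clones, 24.3 and 22.5 in M1 and 21.9 and 22.9 in M2. The differences were -1.38 ± 0.15 in M1 (adjusted p = 1.30e-05) and -1.44 ± 0.16 in M2 (adjusted p = 4.32e-06), and -0.51 ± 0.15 in E (adjusted p = 0.0482; -0.43 and adjusted p = 0.216 without E replicate 1).

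Of the TNF cluster, LTB, which encodes lymphotoxin beta, and NFKBIL1 had start regions. LTB was not called in any comparison, at 21.3 and 21.7 CPM in Parental and 20.5 and 28.5 in M2. NFKBIL1 shares 2 start regions with ATP6V1G2: the stronger was not called in M2 (27.8 ± 0.996 and 21.0 ± 2.88 CPM, -0.40 ± 0.18, adjusted p = 0.0678), while the other, 11.6 and 12.9 CPM in Parental and 18.9 and 20.6 in M2, rose (0.69 ± 0.21, adjusted p = 0.0112). TNF, LTA, LST1, AIF1 and NCR3 had no start region. CFB, complement factor B, rose in M2 from 29.4 and 29.9 CPM to 37.4 and 41.4 (0.41 ± 0.14, adjusted p = 0.0186). That call was lost in 5 other settings, among them library totals and the omission of either Parental library. C2, C4A and C4B had no start region.

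Some of the deepest falls lay outside the presentation genes. At RNF39 (chr6:30075686-30076403) the start held 63.2 and 55.4 CPM in Parental, 59.7 and 59.4 in E, 54.3 and 47.2 in EM1, 40.6 and 48.3 in EM2, 54.0 and 49.4 in EM3, 8.40 and 5.62 in M1 and 1.60 and 3.06 in M2. The M1 and M2 libraries were far below the rest, and M2 below M1. The differences were -3.10 ± 0.23 in M1 (adjusted p = 5.50e-07) and -4.61 ± 0.26 in M2 (adjusted p = 2.18e-08, the smallest of the locus in that comparison), and -1.50 ± 0.28 between M2 and M1 (adjusted p = 0.000539).

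DDR1, a collagen receptor kinase known from epithelial cells, also fell in both clones. The stronger of its 2 start regions (chr6:30886015-30886734) held 73.1 and 82.0 CPM in Parental, 55.1 to 71.7 in E and the EM clones, 46.4 and 34.5 in M1 and 17.1 and 19.3 in M2. The differences were -0.95 ± 0.17 in M1 (adjusted p = 0.000439), -2.09 ± 0.17 in M2 (adjusted p = 4.51e-07) and -1.15 ± 0.17 for M2 against M1 (adjusted p = 0.000115). The other DDR1 start region (chr6:30885595-30885886), at 15.5 and 19.5 CPM in Parental, fell to 3.08 and 3.30 in M1 and 3.21 and 3.59 in M2 (-2.45 ± 0.32, adjusted p = 4.63e-05 and -2.36 ± 0.32, adjusted p = 3.12e-05). A region inside TRIM27 (chr6:28922077-28922384), a gene of the tripartite motif ubiquitin ligases, fell from 30.3 and 27.8 CPM to 3.30 and 3.50 in M1 and 4.12 and 5.58 in M2 (-3.09 ± 0.22, adjusted p = 4.51e-07 and -2.56 ± 0.21, adjusted p = 4.73e-07), while the TRIM27 start itself was not called (0.21 ± 0.15 in M1 and 0.07 ± 0.16 in M2). The region 20 bp from LY6G6C (chr6:31718327-31718628), a gene of the LY6 surface proteins, held 17.0 and 15.9 CPM in Parental, 13.0 to 21.0 in E and the EM clones, 0.213 and 0.198 in M1 and 0 and 0.382 in M2. M1 and M2 together lay below all other libraries there, with differences of -6.26 ± 0.48 (adjusted p = 7.32e-07) and -6.12 ± 0.48 (adjusted p = 2.75e-07), each resting on 5 counts in the clone and 374 in Parental.

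The block at higher coordinates than IER3, an early stress response gene, held several regions that changed. The region 66257 bp away (chr6:30810804-30811351) held 36.0 and 36.2 CPM in Parental, 10.1 and 20.4 in EM2, 1.17 and 1.52 in M1 and 0.344 and 0.229 in M2, with 20.3 to 36.0 in the other clones. It fell in EM2 (-1.24 ± 0.33, adjusted p = 0.0303), M1 (-4.71 ± 0.41, adjusted p = 1.96e-06) and M2 (-6.98 ± 0.53, adjusted p = 2.03e-07, the lowest difference from Parental in the locus). Closer to the gene, 4366 bp away, the region at chr6:30748913-30749282 instead held 5.08 and 11.9 CPM in Parental, 23.7 and 35.7 in M1 and 2.75 and 2.29 in M2, a rise in M1 (1.81 ± 0.37, adjusted p = 0.00143) and a fall in M2 (-1.76 ± 0.42, adjusted p = 0.00226). Its neighbour 5108 bp from IER3 (chr6:30749655-30749907) fell in both, from 19.1 and 17.6 CPM to 5.53 and 5.09 in M1 and 4.12 and 3.74 in M2 (-1.79 ± 0.25, adjusted p = 8.38e-05 and -2.22 ± 0.26, adjusted p = 9.33e-06). The region at the FLOT1 start (chr6:30741800-30743289) was not called in any comparison, with 66.5 and 90.5 CPM in Parental and 62.9 to 119 in the others. It overlaps IER3 but was tied to that gene by the rule of either gene end. It may therefore not be the IER3 start, of which nothing is said here.

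**Figure D4:**
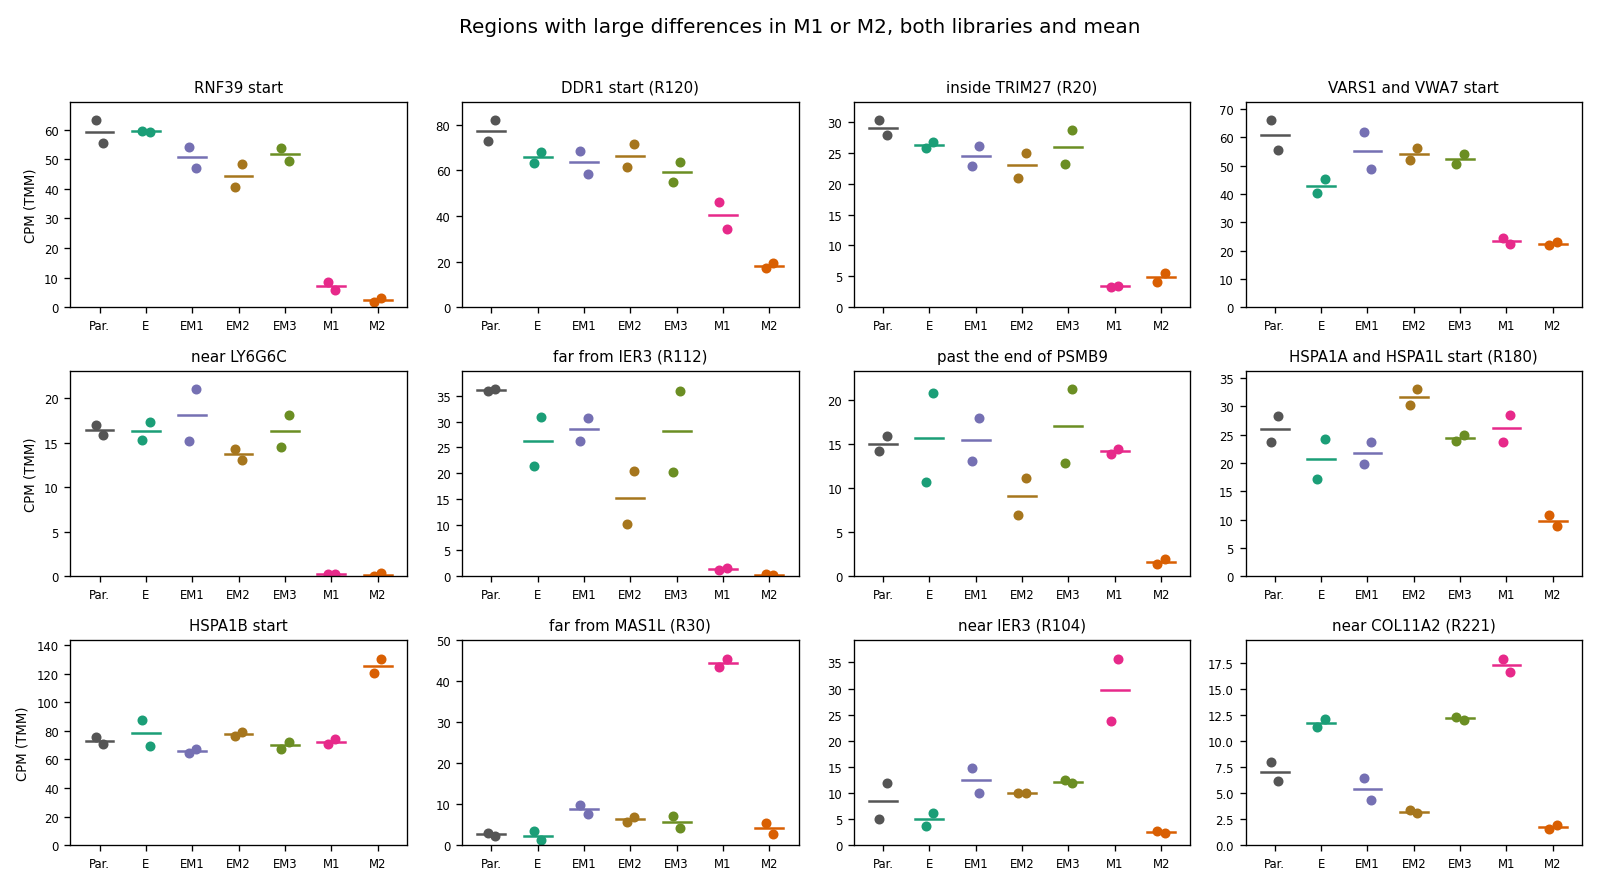
Accessibility (CPM with TMM scaling, linear axes from 0) at 12 locus regions with large differences in M1 or M2, in each group; points are the 2 libraries and lines their mean, and numbers such as R20 give the order of the 244 regions along the locus. RNF39, LY6G6C and TRIM27 (R20) are low in both M1 and M2, HSPA1A (R180) is lowest and HSPA1B highest in M2, and the region far from MAS1L (R30) is highest in M1.

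Among the rises against Parental, that of ZNF311 in M2 was the largest in the locus. Its start (chr6:29005351-29005799) held 0 and 0.170 CPM in Parental, 5.10 and 0.439 in E, no more than 0.289 in EM1, EM2, EM3 and M1, and 15.0 and 15.1 in M2. With 2 counts in Parental and 328 in M2, the ratio was 171.5 (95% interval 47.1 to 1422, counting error only). The difference in M2 was 7.26 ± 1.18 (adjusted p = 0.000125), a call lost with loess offsets. GABBR1, a GABA receptor gene, had a start region that fell in M2 from 11.8 and 12.6 CPM to 3.66 and 4.05 (-1.66 ± 0.25, adjusted p = 7.68e-05). A region 14336 bp from MAS1L (chr6:29502292-29503075) was open in M1, with 43.6 and 45.6 CPM beside 2.99 and 2.38 in Parental and no more than 9.79 in any other library (4.05 ± 0.43, adjusted p = 8.68e-06 in M1, and 0.59 ± 0.45, adjusted p = 0.259 in M2).

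Of 16 listed genes of the class I part with mixed functions, from tubulin and a collagen receptor to an RNA helicase and a tRNA synthetase, 15 had a start region, in 13 distinct regions. Of these 7 were higher and 3 lower in M2, beside 43.2% and 19.2% of all gene start regions, and 1 was higher and 2 lower in M1, beside 9.36% and 13.7%. Their median in M2 was 0.38, beside 0.36 over all gene start regions. PPP1R18, an actin-linked phosphatase subunit, rose in both: 18.9 and 25.8 CPM in Parental, 38.3 and 39.2 in M1 and 56.3 and 58.0 in M2 (0.79 ± 0.18, adjusted p = 0.00287 and 1.36 ± 0.18, adjusted p = 2.46e-05). TUBB, a beta tubulin, rose in M2 (31.0 and 37.2 CPM to 50.5 and 48.5, 0.53 ± 0.14, adjusted p = 0.00487; lost without Parental replicate 1). ATAT1, the tubulin acetyltransferase, fell in both clones (-0.58 ± 0.20, adjusted p = 0.0348 and -0.65 ± 0.20, adjusted p = 0.0129). The M1 call was lost in 5 settings and the M2 call in 2, each time with the omission of Parental replicate 2 among them. Of 10 listed genes of the TRIM family and its neighbours, 6 had a start region, namely TRIM26, TRIM27, TRIM39, RNF39, PPP1R11 and POLR1H. Of these TRIM26 rose in M2 (0.46 ± 0.15, adjusted p = 0.0155) and RNF39 fell. The TRIM26 call was lost in 4 settings, among them library totals and the omission of either Parental library.

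In clone E, 12 locus regions were called and 5 without E replicate 1 (4 higher and 1 lower). Those 5 include HLA-DMA and HLA-DMB, given above, a region inside PSORS1C1 at chr6:31126007-31126378 (2.61 ± 0.32, adjusted p = 0.000865, and 2.16, adjusted p = 0.00454 without that library) and a region inside ABCF1 (-2.56 ± 0.53, adjusted p = 0.00975, and -3.92, adjusted p = 0.00519). ZNF311 (4.81 ± 1.28, adjusted p = 0.0300) was not called without E replicate 1 (adjusted p = 0.415). The other PSORS1C1 region, at chr6:31122799-31123241 (2.47 ± 0.64, adjusted p = 0.0259) went to 0.63 (adjusted p = 0.492), and a region inside TNXB, the tenascin X gene (3.36 ± 0.81, adjusted p = 0.0196), to 1.30 (adjusted p = 0.319). With library totals the split in E was 8 higher and 2 lower.

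At 14 locus regions that were over 2 log2 units higher in M2 than in Parental and also called higher than in M1, E replicate 1 was above E replicate 2 in 14 of 14. The same was not counted over all regions or over such regions elsewhere, so it does not show a trait of the locus. Summed over them, Parental held 23.6 CPM, M2 285, E replicate 1 108 and E replicate 2 45.6. At ZNF311 the E libraries held 5.10 and 0.439 CPM, at the first PSORS1C1 region 12.4 and 1.98, and at the TNXB region 9.83 and 1.32. The part of this difference between the E libraries in the results for E was not tested.

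**Figure D5:**
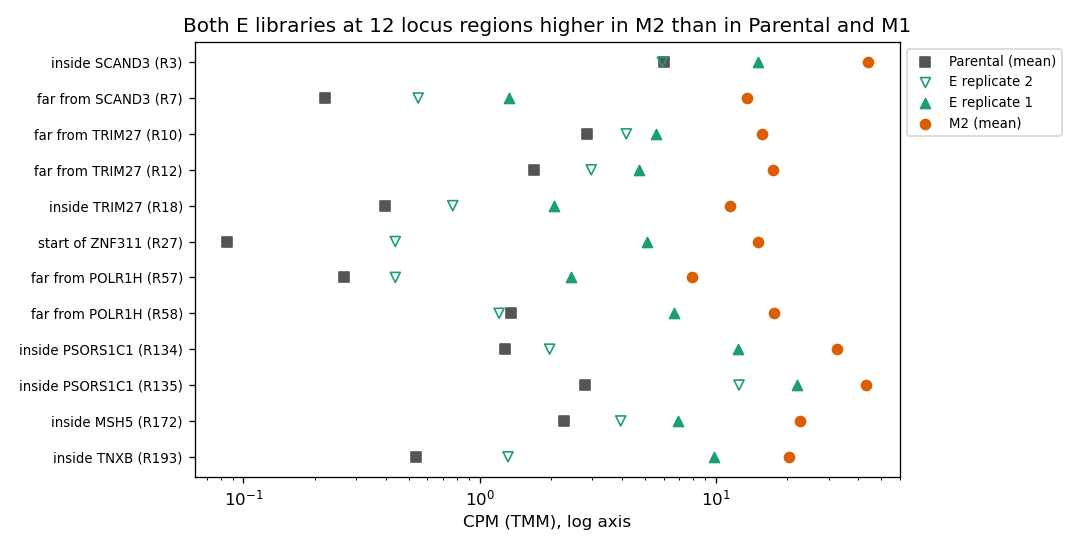
Accessibility (CPM with TMM scaling, log axis) at 12 of the 14 locus regions higher in M2 than in Parental and M1, as the means of Parental and M2 and as each E library; numbers such as R27 give the order of the regions along the locus. E replicate 1 is above E replicate 2 at each of the 12 shown.

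In the EM clones few regions were called in the main fit. With the replicate number as a block in the fit, 1 was called in EM1, 19 in EM2 and 11 in EM3. The calls named here are those of the main fit. EM2 rose at a region inside TNXB (1.05 ± 0.30, adjusted p = 0.0452) and fell at HLA-DOB, at the ABCF1 region (-1.72 ± 0.48, adjusted p = 0.0409), 66257 bp from IER3, at a region 6760 bp from MUC22, a mucin gene (5.53 and 5.85 CPM to 1.93 and 2.96, -1.22 ± 0.28, adjusted p = 0.0176), and next to COL11A2. Without EM2 replicate 1 the count fell to 1, and with library totals the split was 2 higher and 5 lower. EM3 rose at a region inside GNL1, a GTP-binding protein gene (5.80 and 3.05 CPM to 14.1 and 16.6, 1.79 ± 0.34, adjusted p = 0.0166), and at one 28886 bp from HLA-G (0.96 ± 0.23, adjusted p = 0.0460), and fell at a region inside TRIM27 (-1.22 ± 0.30, adjusted p = 0.0448). Each of these EM3 calls was lost without either Parental library; the split was 2 and 0 with library totals and 1 and 1 with DESeq2 size factors.

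Presentation genes elsewhere in the genome were also measured. Of 26 listed genes, 24 had a start region. Of these, 10 were higher and 2 lower in M2, beside 43.2% and 19.2% of all gene start regions. Their median in M2 was 0.40, beside 0.36. In M1, 3 were higher and 1 lower (beside 9.36% and 13.7%). In E, 1 was higher and none lower (beside 2.59% and 2.97%). None was called in EM1, EM2 or EM3, beside 0.469%, 4.86% and 1.94% of all gene start regions. How the calls outside the locus hold in other settings was not examined. NLRC5, the activator of class I genes, went from 13.2 ± 0.121 CPM in Parental to 26.5 ± 7.74 in M2 (1.01 ± 0.23, adjusted p = 0.00170), and CIITA, the activator of class II genes, from 11.9 ± 2.91 to 23.1 ± 9.12 (0.95 ± 0.29, adjusted p = 0.0101). In M1 these were at 0.04 ± 0.23 (adjusted p = 0.918) and 0.00 ± 0.29 (adjusted p = 0.997). CANX, the chaperone calnexin, rose in M2 (1.02 ± 0.16, adjusted p = 0.000104), as did the X box factor gene RFX5 (0.77 ± 0.14, adjusted p = 0.000330) and IRF1, an interferon response factor (0.77 ± 0.15, adjusted p = 0.000478). PSMB10, another immunoproteasome subunit, fell in M1 (-0.70 ± 0.13, adjusted p = 0.000743) and M2 (-0.41 ± 0.13, adjusted p = 0.0136). B2M, the light chain of class I, was not called (58.1 ± 4.33 and 54.3 ± 7.36 CPM, -0.09 ± 0.15, adjusted p = 0.587).

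Of the 4 blood cell markers with a start region, CD3E, CD14 and CSF1R fell in M2 and none rose. Over all gene start regions, 19.2% were lower and 43.2% higher in M2. CSF1R went from 32.4 ± 1.71 to 9.83 ± 1.80 CPM (-1.73 ± 0.21, adjusted p = 9.45e-06). In E, 1 of the 4 was lower and none higher, beside 2.97% and 2.59% of all gene start regions. How that call holds without E replicate 1 was not examined. Any relation of the falls in M2 and E to the rises at HLA-DMA and HLA-DMB in these clones, and at CIITA in M2, was not tested.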

How the data were processed

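ATAC-seq was done on 14 libraries of SUM149PT, 2 for each of 7 groups. The authors deposited whole-number counts per region for all libraries in 1 table, and per the submitters' processing notes the build was hg38 and the tools included featureCounts, MACS2 2.1.1, Bowtie2 2.2.6 and cutadapt 1.9.1. The notes give these tools no role, and the way the regions were selected is not stated. A region missing from the table can be closed or merely not selected. The deposited peak lists were not used because the clone in the name and the attached sample differed for 6 of 7.

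Counts were fitted with edgeR 4.0.16 in R 4.3.3 (TMM scaling, a minimum count of 10 in filterByExpr, 7 group means, quasi-likelihood F test), which tested 65771 of 65774 regions, with Benjamini-Hochberg adjustment over all of them and calls at 0.05. SE was taken from the log2 difference and its F value. DESeq2 1.42.0 served as an alternative. The test was checked on simulated data. Intervals on counts cover counting error only. Gene starts came from RefSeq promoter windows (GRCh38.p14) and, where a gene had none, from either gene end; 154 of the 172 protein-coding genes of the locus had windows. Named are the start region with the highest mean level of each listed gene, the 4 largest rises and 4 largest falls among calls of each comparison whose libraries do not overlap, the 5 highest regions, the 5 with the smallest p among the 7 groups, and every region within 10 kb of the 5 marker genes; second start regions and neighbours of these were added after their values were seen. Members, lists and tests were chosen with earlier results of these data known. The effect of other scalings, tests, library omissions and gene assignment is given in part in the results above and in part in the closing section. Without the filter, the locus counts of each clone against Parental and of M2 against M1 were unchanged. Some genes and regions near them are not reported here.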

Additional observations from a re-analysis of the deposited data

Results flagged for a closer look

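At 5 regions M1 and M2 were both called against Parental with opposite signs, and the direct comparison of M2 with M1 was also called by edgeR. Such cases were not counted over all regions. Near IER3 (chr6:30748913-30749282) the log2 difference between M2 and M1 was -3.57 (adjusted p = 1.58e-05), with means of 8.48 CPM in Parental, 29.7 in M1 and 2.52 in M2. Farther from IER3 (chr6:30787947-30788296) it was -7.56 (adjusted p = 1.62e-06), with 4.11 CPM in Parental, 10.6 in M1 and 0.0382 in M2. At the start of LY6G5C (chr6:31680609-31681314) it was -1.21 (adjusted p = 8.11e-05), with 20.4 CPM in Parental and 32.3 in M1 and differences from Parental of 0.66 in M1 and -0.54 in M2. Next to COL11A2 (chr6:33160822-33161354) it was -3.25 (adjusted p = 1.71e-06), with 7.09, 17.3 and 1.80 CPM. Inside PBX2 (chr6:32185698-32186004) the order was the reverse: the difference was 1.26 (adjusted p = 0.000762), with 8.58 CPM in Parental, 5.29 in M1 and 12.7 in M2.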

How the results depend on the processing

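Of 174 calls at named regions, 85 held in every setting and 89 were lost in at least 1. With library omissions in turn, the locus counts ran from 106 to 140 among the 7 groups, 3 to 13 in E, 0 to 1 in EM1, 1 to 12 in EM2, 0 to 4 in EM3, 46 to 76 in M1, 107 to 139 in M2 and 62 to 112 for M2 against M1. With only the libraries compared in the fit, 4 regions were called in E, 1 in EM1 and 11 in EM3. With a log2 limit of 1, the counts were 7 in E, 41 in M1, 77 in M2 (36 higher, 41 lower) and 48 for M2 against M1. The DESeq2 test called 1 in EM1, 10 in EM2 and 5 in EM3. With the replicate number as a block, 18 were called in E, 1 in EM1, 19 in EM2, 11 in EM3, 84 in M1, 153 in M2 and 123 for M2 against M1. Over 21 pairs of groups, the deviations of the first replicates correlated at 0.023 to 0.590 (median 0.272, 19 over 0.1). Since not every pair was over 0.1 and no label ties the numbers to a batch or culture, the fit without the block was kept; a shared replicate effect was not tested further. With loess offsets the sign turned at 4 values: R7 far from SCAND3, M2 versus M1, went from 3.60 to -0.38 and R18 inside TRIM27, M2 versus Parental, from 4.83 to -0.22, both losing their call, while R47 start of HLA-G, M2 versus Parental, went from 0.50 to -1.50 and R47 start of HLA-G, M2 versus M1, from 0.47 to -1.28, both then called lower. Assigning regions to the nearest gene end within 10 kb tied 175 regions to genes instead of 93, and turned the balance of the peptide processing genes in M2 to 2 higher and 4 lower. The cause of these changes was not tested. With 2 libraries a group, small differences were not detectable.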
